A study of Mus musculus with 9 samples.

Results

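The genes described here are 44 listed genes of DNA replication and S phase, and they were followed over the 9 arrays of a study of mouse regulatory T cells. They were chosen by name for their work at replication origins, in the replicative helicase, the DNA polymerases and the clamp, in nucleotide synthesis and at the passage from G1 to S phase by a rule that uses no measured value, though the list was drawn up with earlier results of these data known. Of the 44 genes, 43 were named on the array among 12393 genes in all, and Chaf1a, a subunit of the histone chaperone CAF-1, was not. Of these 43, 40 were bright enough to be tested, among 7436 genes tested in all. Orc1, Tyms and Ccne2 fell below the limit, a mean log2 signal of 4.98, and are given below without a test.

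A cell copies its genome once per division. In G1 the origin recognition complex, CDC6 and CDT1 load the MCM helicase onto origins, and in S phase the helicase is switched on and polymerases copy both strands around the PCNA clamp, supplied with nucleotides by ribonucleotide reductase and its partner enzymes. Many of the genes are transcribed under E2F factors as a cell leaves G1, so that resting lymphocytes hold little of their RNA and dividing ones hold more, and regulatory T cells are known as a T cell population with a high share of dividing cells.

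All cells were CD4+CD25+ T cells sorted with magnets from C57BL6 mice, and each of 3 groups had 3 arrays. The first group was wild type. In the second Sirt1, the gene of an NAD-dependent deacetylase, was deleted conditionally by Cre recombinase from CD4, which is active from the thymus onward in the T cell lineage. In the third the same gene was deleted by Cre from Foxp3, which is active in cells that express this factor of regulatory T cells. The sources used here do not give age, sex, the exact alleles, whether mice were pooled, or whether the wild type mice carried a Cre. The samples of a group are called independent in the design text, which does not tie them to separate mice, so p-values here measure only how far these samples vary, partly perhaps for technical reasons. Changes below are group means of log2 signals subtracted from each other, given with the standard error (SE), so that 1 is a doubling. A change was called where limma's adjusted p over all 7436 genes was below 0.05.

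The following facts about the arrays bear on everything that follows. Sirt1 lay between 7.47 and 7.69 on the 6 knockout arrays. It read 7.91 and 7.90 on wild type arrays 1 and 3, above all of these, and 6.77 on wild type array 2, below them. With all 3 wild type arrays its change in Foxp3-cre was 0.03 ± 0.26 SE. Whether its probes lie in the deleted part is not known here, so Sirt1 does not check the labels. Foxp3 read 9.16 to 9.68 on the wild type arrays and 9.62 to 9.69 on the CD4-cre arrays but only 2.67 to 3.38 on the Foxp3-cre arrays, while the other 8 genes of the regulatory T cell list passed in no comparison and the mean of 8 T cell markers lay between 10.70 and 10.94 on every array. Wild type array 2 stood apart, with correlations of 0.982 to 0.987 to the other arrays against at least 0.992 among those, and with a 5′ minus 3′ actin signal of -1.53 against -0.68 to -0.45 elsewhere, a sign of RNA quality. Its part in the results was not tested, and values without it are given below.

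In Foxp3-cre cells the replication genes were higher than in wild type almost throughout. The median change of the 40 genes was 0.58, beside 0.01 over all genes tested, and 38 of the 40 lay above 0, beside 51.1% of all genes. Gmnn, Pola1, Rrm1, Rrm2 and Chek1 rose at a limma adjusted p between 0.024 and 0.033, and no member fell. In this comparison 1.69% of all genes tested were called higher and 1.67% lower, so that 5 of 40, 12.5%, is more than the background share. The labels do not pair the arrays, but deviations from group means correlated weakly, at 0.201 to 0.255, for same-numbered wild type and Foxp3-cre arrays. The block by array number is shown because of these correlations, so that choice rests on the same values. With the number as a block in the fit of all 9 arrays 14 of the 40 were called, all higher, beside 2.89% of all genes. The 9 added were Cdc6, Mcm5, Mcm6, Prim1, Prim2, Rfc5, Tk1, Dut and Uhrf1, and below, calls and limma adjusted p are without the block unless it is named. At an unadjusted limma p below 0.05, 30 of the 40 were higher, beside 10.5% of all genes, and at an adjusted p below 0.10 there were 18, beside 4.3%. All 3 Foxp3-cre arrays lay above all 3 wild type arrays for 26 members, beside 11.1% of all genes. Only Pola1 changed by more than a doubling, and 22 members had a change above 0.5, beside 4.38% of all genes. In RNA from bulk samples more cells in S phase and more RNA per cell cannot be told apart.

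**Figure D1:**
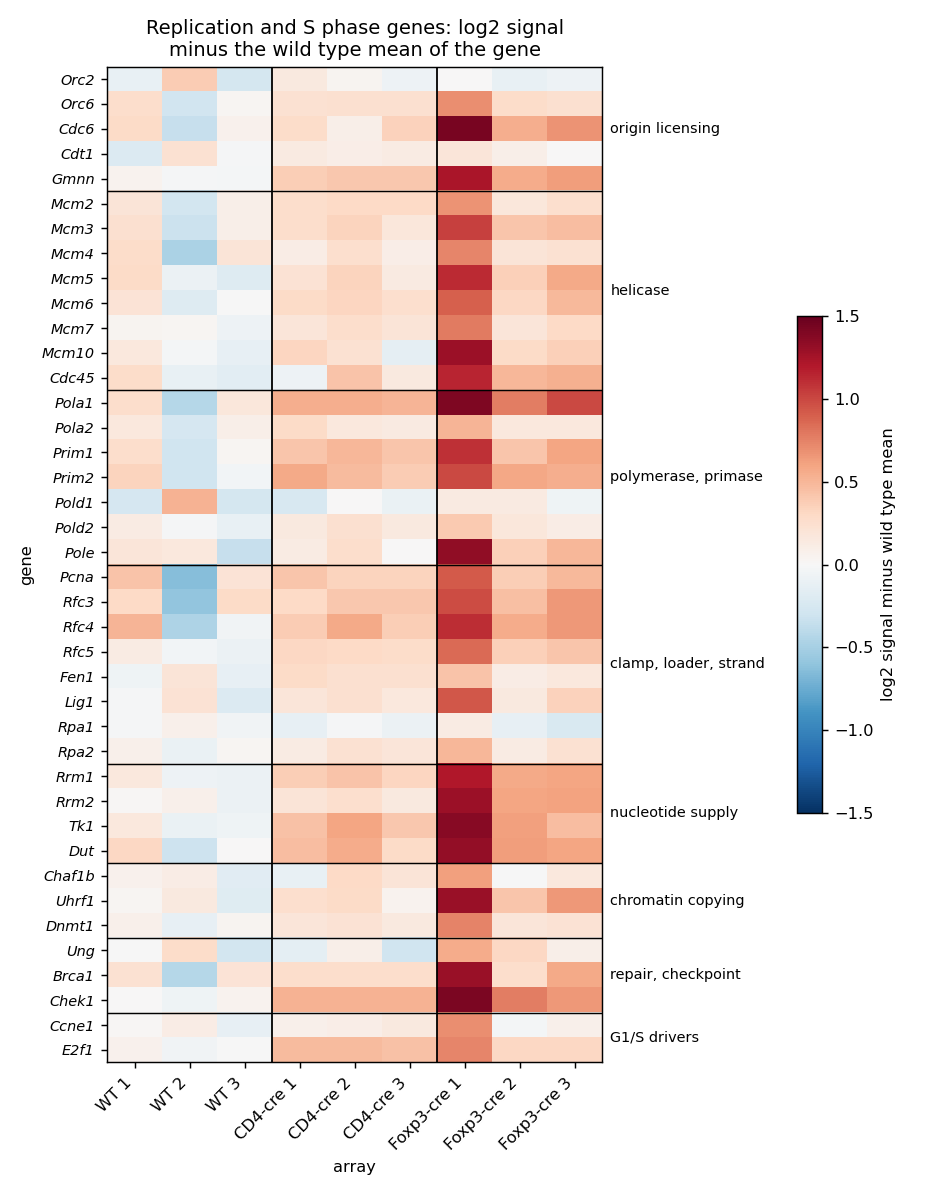
Log2 signal of the 40 tested replication and S phase genes on the 9 arrays, each minus the gene's wild type mean, with genes in rows by role and arrays in columns by group. Red is above and blue below the wild type mean; Foxp3-cre array 1 is the darkest column and holds the highest signal of the 9 arrays for 37 of the 40 genes, while wild type array 2 is the lowest for 20.

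Origin licensing was mixed. Gmnn encodes geminin, which binds CDT1 and keeps origins from being licensed again within a cycle. Its log2 signals were 8.08, 8.01 and 8.0 on wild type arrays 1 to 3, 8.39, 8.44 and 8.43 on the CD4-cre arrays and 9.26, 8.58 and 8.66 on the Foxp3-cre arrays. The 3 groups did not overlap and Foxp3-cre array 1 stood highest, and the change in Foxp3-cre was 0.80 ± 0.15 SE, a 1.75-fold rise with a limma adjusted p of 0.0283. Cdc6, which helps load the helicase at origins, read 5.95, 5.32 and 5.72 in wild type, 5.94, 5.75 and 6.01 with CD4-cre and 7.09, 6.21 and 6.34 with Foxp3-cre. Its Foxp3-cre arrays lay above all the others, but its wild type array 2 was low and the change of 0.88 ± 0.23 SE had a limma adjusted p of 0.0721, and of 0.0203 with the block. The loading factor Cdt1 had a change of 0.09 ± 0.11 SE, and of the origin recognition subunits Orc6 was at 0.41 ± 0.16 SE and Orc2 at -0.06 ± 0.15 SE, none of them called. Without wild type array 2 Cdt1 was at 0.20, Orc6 at 0.26 and Orc2 at 0.13. Other probe sets above the limit gave 0.42 for Cdt1 and 0.09 and -0.20 for Orc2 with all arrays. Orc1, the dim subunit below the limit, read 3.75 to 4.37 in wild type, 4.17 to 4.31 with CD4-cre and 4.26 to 5.05 with Foxp3-cre, with overlap between the groups.

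The helicase genes all lay on one side, and without the block none passed. All 8 were above 0 in Foxp3-cre, from 0.37 in Mcm2 to 0.73 in Cdc45, with a median of 0.60 and 7 at an unadjusted limma p below 0.05. Mcm2 to Mcm7 encode the ring of the helicase, and Mcm5, one of its subunits, read 7.90, 7.52 and 7.42 in wild type, 7.83, 7.94 and 7.75 with CD4-cre and 8.74, 7.97 and 8.18 with Foxp3-cre. The Foxp3-cre arrays of Mcm5 lay above all others, though array 2 only narrowly, and the change was 0.68 ± 0.19 SE with a limma adjusted p of 0.0901, and of 0.046 with the block. Mcm2 had 8.54, 8.06 and 8.43 in wild type, 8.61, 8.65 and 8.64 with CD4-cre and 9.02, 8.52 and 8.60 with Foxp3-cre. Here Foxp3-cre array 2 lay within the wild type range, and the change of 0.37 ± 0.15 SE had a limma adjusted p of 0.204. Without Foxp3-cre array 1 it was 0.22. Cdc45, which joins the ring to make the active helicase, read 5.23, 4.84 and 4.80 in wild type, 4.87, 5.38 and 5.11 with CD4-cre and 6.10, 5.46 and 5.49 with Foxp3-cre. Its Foxp3-cre arrays lay above every other array while wild type and CD4-cre overlapped, and the change was 0.73 ± 0.20 SE with a limma adjusted p of 0.0836. The remaining ring genes Mcm3, Mcm4, Mcm6 and Mcm7 and the activation factor Mcm10 had changes of 0.63, 0.39, 0.57, 0.42 and 0.65. With the block Mcm6 had a limma adjusted p of 0.0376. Mcm4 was at 0.21, Mcm7 at 0.24 and Mcm10 at 0.33 without Foxp3-cre array 1, and without wild type array 2 as well Mcm4 was at -0.02.

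Among the 7 polymerase and primase genes all lay above 0, with a median of 0.70, and 1 was called. Pola1, the catalytic subunit of DNA polymerase alpha, read 6.60, 5.91 and 6.51 in wild type, 6.88, 6.88 and 6.85 with CD4-cre and 7.73, 7.11 and 7.33 with Foxp3-cre. The groups did not overlap, with wild type array 2 the lowest and Foxp3-cre array 1 the highest, and the change of 1.05 ± 0.20 SE, 2.08-fold, had a limma adjusted p of 0.026. Prim1 and Prim2, the primase subunits of the same complex, had changes of 0.70 ± 0.18 SE and 0.71 ± 0.17 SE with limma adjusted p of 0.0714 and 0.0545, or 0.0346 and 0.0157 with the block, and its accessory subunit Pola2 had 0.28 ± 0.13 SE. Pole, the catalytic subunit of the leading strand polymerase epsilon, read 6.06, 6.04 and 5.53 in wild type, 6.0, 6.14 and 5.88 with CD4-cre and 7.21, 6.23 and 6.38 with Foxp3-cre. Its Foxp3-cre arrays were above all others, yet arrays 2 and 3 by little, and the change was 0.73 ± 0.24 SE with a limma adjusted p of 0.128. Without Foxp3-cre array 1 it was 0.43. The lagging strand polymerase delta had changes of 0.07 ± 0.19 SE in Pold1 and 0.22 ± 0.10 SE in Pold2. Wild type array 2 read 8.61 in Pold1, the highest of the 9 arrays. Without that array the changes were 0.33 in Pold1 and 0.22 in Pold2, and the other probe set of Pold1 gave 0.29 with all arrays. Whether subunits of a complex differ from each other was not tested.

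At the fork 7 of 8 genes lay above 0, with a median of 0.51, and without the block none was called. Pcna, the sliding clamp, read 11.32, 10.25 and 11.10 in wild type, 11.30, 11.22 and 11.22 with CD4-cre and 11.80, 11.26 and 11.37 with Foxp3-cre. Wild type array 2 was far below the other 8 arrays, Foxp3-cre array 2 was below wild type array 1, and the change was 0.59 ± 0.25 SE with a limma adjusted p of 0.211. Without wild type array 2 that change was 0.27. The clamp loader gene Rfc4 had 7.31, 6.33 and 6.74 in wild type, 7.17, 7.37 and 7.16 with CD4-cre and 7.91, 7.35 and 7.44 with Foxp3-cre. Rfc3, another loader subunit, had 5.80, 4.89 and 5.78 in wild type, 5.79, 5.90 and 5.90 with CD4-cre and 6.47, 5.94 and 6.14 with Foxp3-cre. On these sets of both loader genes wild type array 2 was the lowest of 9 and the Foxp3-cre arrays lay above wild type. The changes were 0.77 ± 0.23 SE for Rfc4 and 0.69 ± 0.23 SE for Rfc3 at limma adjusted p of 0.0977 and 0.128. Without wild type array 2 these changes fell to 0.54 and 0.39. On the other set of Rfc4, with a change of 0.54, wild type array 2 read 6.72, above wild type arrays 1 and 3 at 6.42 and 6.23. The Foxp3-cre arrays of that set still lay above wild type. On the other set of Rfc3, with a change of 0.46, Foxp3-cre arrays 2 and 3 read 5.51 each, below wild type array 1 at 5.62. Of the other fork genes, the loader subunit Rfc5 had a change of 0.54, with a limma adjusted p of 0.0524 and of 0.0306 with the block, the DNA ligase Lig1 0.48, the single-strand binding subunit Rpa2 0.28 and the flap nuclease Fen1 0.23, while Rpa1, the large single-strand binding subunit, was at -0.07 ± 0.10 SE. Lig1 was at 0.25 without Foxp3-cre array 1. Other probe sets above the limit gave 0.12 for Rpa1, 0.52 for Rpa2 and 0.64 for Fen1 with all arrays.

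Nucleotide supply was the role with the narrowest spread of changes. All 4 tested genes lay between 0.79 and 0.84, and 2 of them were called. Rrm1, the large subunit of ribonucleotide reductase, read 8.31, 8.08 and 8.06 in wild type, 8.52, 8.58 and 8.47 with CD4-cre and 9.35, 8.72 and 8.74 with Foxp3-cre. Rrm2, its small subunit made mainly in S phase, read 8.98, 9.04 and 8.87 in wild type, 9.16, 9.22 and 9.11 with CD4-cre and 10.25, 9.55 and 9.57 with Foxp3-cre. On the probe sets used both subunits separated the 3 groups in the same order, with CD4-cre between the others and Foxp3-cre array 1 on top. On their other sets the groups overlapped. Wild type array 1 read 6.06 on that of Rrm1, above the CD4-cre arrays at 5.90 to 5.99 and Foxp3-cre array 2 at 6.01. On another set of Rrm2 it read 7.01, above the CD4-cre arrays at 6.69 to 6.78 and Foxp3-cre array 2 at 6.94. On a further set of Rrm2 it read 7.67, above CD4-cre array 3 at 7.49. The change was 0.79 ± 0.16 SE for Rrm1, 1.73-fold, with a limma adjusted p of 0.0328, and 0.83 ± 0.17 SE for Rrm2, 1.77-fold, with a limma adjusted p of 0.0329. Dut, the dUTPase that keeps uracil out of DNA, had 8.54, 7.91 and 8.23 in wild type, 8.69, 8.79 and 8.52 with CD4-cre and 9.54, 8.86 and 8.82 with Foxp3-cre. Its Foxp3-cre arrays were above all others and CD4-cre overlapped wild type, and the change was 0.84 ± 0.21 SE with a limma adjusted p of 0.0622, and of 0.0276 with the block. Tk1, the thymidine kinase, was close to these with 0.82 ± 0.20 SE and a limma adjusted p of 0.0627, and 0.0378 with the block. Without Foxp3-cre array 1 it was 0.54. The probe set of Tyms, thymidylate synthase, read 3.19, 4.33 and 3.52 in wild type, 3.70, 3.77 and 3.70 with CD4-cre and 3.74, 3.94 and 3.27 with Foxp3-cre. All its values were below the limit and the groups overlapped, so it gives no reading of the gene either way.

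**Figure D2:**
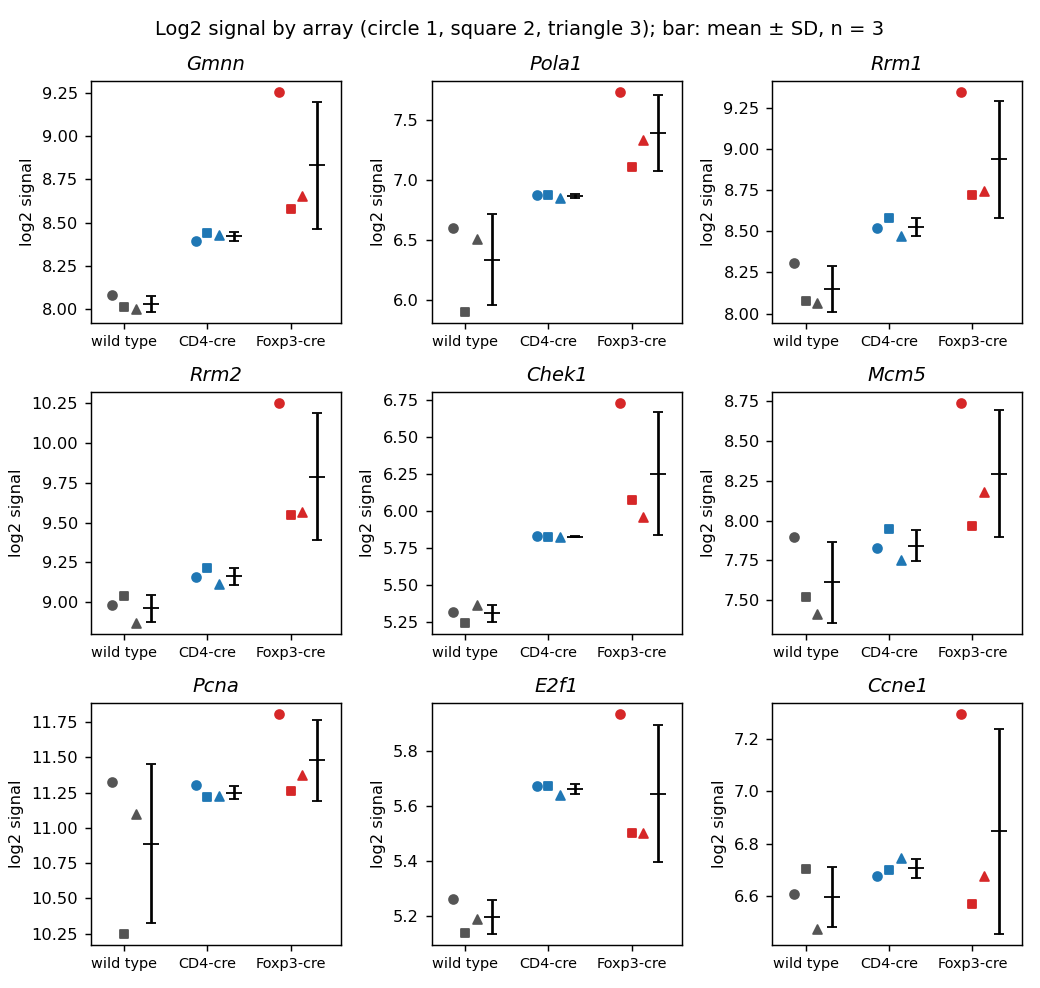
Log2 signal of 9 genes on each of the 9 arrays, with circles for array 1, squares for array 2 and triangles for array 3 of a group, and with bars for the mean and SD of 3 arrays; each panel has its own axis, which does not start at 0. The first 5 panels are the called genes, whose 3 groups do not overlap on the probe sets used. In Pcna wild type array 2 lies far below, and in Ccne1 the groups overlap.

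Of the genes that copy chromatin and its methylation 3 were tested, all above 0 and without the block none called. Uhrf1, which brings the maintenance methyltransferase to newly copied DNA, read 7.69, 7.80 and 7.47 in wild type, 7.91, 7.94 and 7.70 with CD4-cre and 8.95, 8.06 and 8.30 with Foxp3-cre. Dnmt1, that methyltransferase, read 9.06, 8.86 and 9.02 in wild type, 9.16, 9.20 and 9.12 with CD4-cre and 9.72, 9.16 and 9.20 with Foxp3-cre. For both the Foxp3-cre arrays lay above wild type on the probe sets used, with changes of 0.79 ± 0.20 SE for Uhrf1 and 0.38 ± 0.14 SE for Dnmt1 at limma adjusted p of 0.0673 and 0.161. With the block that of Uhrf1 was 0.0483, and without Foxp3-cre array 1 the change of Dnmt1 was 0.20. On the other set of Dnmt1 wild type array 2 read 9.43, above Foxp3-cre arrays 2 and 3 at 9.08 each, and the change was 0.21. The other set of Uhrf1 gave 0.96, again with the Foxp3-cre arrays above wild type. Chaf1b, the CAF-1 subunit that was measured, had a change of 0.26 ± 0.17 SE.

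In the repair and checkpoint group Chek1 was called. It encodes the checkpoint kinase CHK1, which restrains the cycle when forks stall, and it read 5.32, 5.25 and 5.36 in wild type, 5.83 on all 3 CD4-cre arrays and 6.73, 6.07 and 5.96 with Foxp3-cre. The groups did not overlap on this probe set, and the change was 0.94 ± 0.17 SE, 1.92-fold, with a limma adjusted p of 0.024. On its other set above the limit Foxp3-cre arrays 2 and 3, at 5.82 each, lay below CD4-cre arrays 1 and 2, at 5.88 and 5.87. With each gene read from its set of largest SD the change of Chek1 was 1.11, with a limma adjusted p of 0.0878. Brca1, a repair gene at stalled and broken forks, read 6.06, 5.40 and 6.03 in wild type, 6.10 on all 3 CD4-cre arrays and 7.13, 6.10 and 6.40 with Foxp3-cre. Wild type array 2 was the low one and Foxp3-cre array 1 the high one, all Foxp3-cre arrays lay above wild type but array 2 matched the CD4-cre arrays, and the change of 0.71 ± 0.25 SE had a limma adjusted p of 0.151. Without wild type array 2 it was 0.49, and without Foxp3-cre array 1 it was 0.42. Ung, the uracil glycosylase, was at 0.32 ± 0.17 SE.

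Of the G1/S drivers both tested genes lay above 0 and neither was called. E2f1, the transcription factor, read 5.26, 5.14 and 5.19 in wild type, 5.67, 5.67 and 5.64 with CD4-cre and 5.93, 5.5 and 5.5 with Foxp3-cre. On this probe set both knockouts lay above wild type, and Foxp3-cre arrays 2 and 3 lay below the CD4-cre arrays. The change of E2f1 in Foxp3-cre was 0.45 ± 0.12 SE, beside 0.46 ± 0.12 SE in CD4-cre, at limma adjusted p of 0.0704 and 0.126. On its other set above the limit the changes were 0.25 in Foxp3-cre and 0.03 in CD4-cre. There wild type array 2 read 5.40, above the CD4-cre arrays at 5.21 to 5.30 and Foxp3-cre arrays 2 and 3 at 5.32 and 5.30. Ccne1, cyclin E1, read 6.61, 6.70 and 6.48 in wild type, 6.67, 6.70 and 6.74 with CD4-cre and 7.29, 6.57 and 6.67 with Foxp3-cre. Only Foxp3-cre array 1 left the wild type range by more than a little, and the change of 0.25 ± 0.17 SE had a limma adjusted p of 0.403. Without Foxp3-cre array 1 it was 0.03. The dim Ccne2, cyclin E2, read 4.31, 3.70 and 4.14 in wild type, 4.11, 4.30 and 4.30 with CD4-cre and 5.43, 4.30 and 4.49 with Foxp3-cre, where again array 1 alone stood clear.

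**Figure D3:**
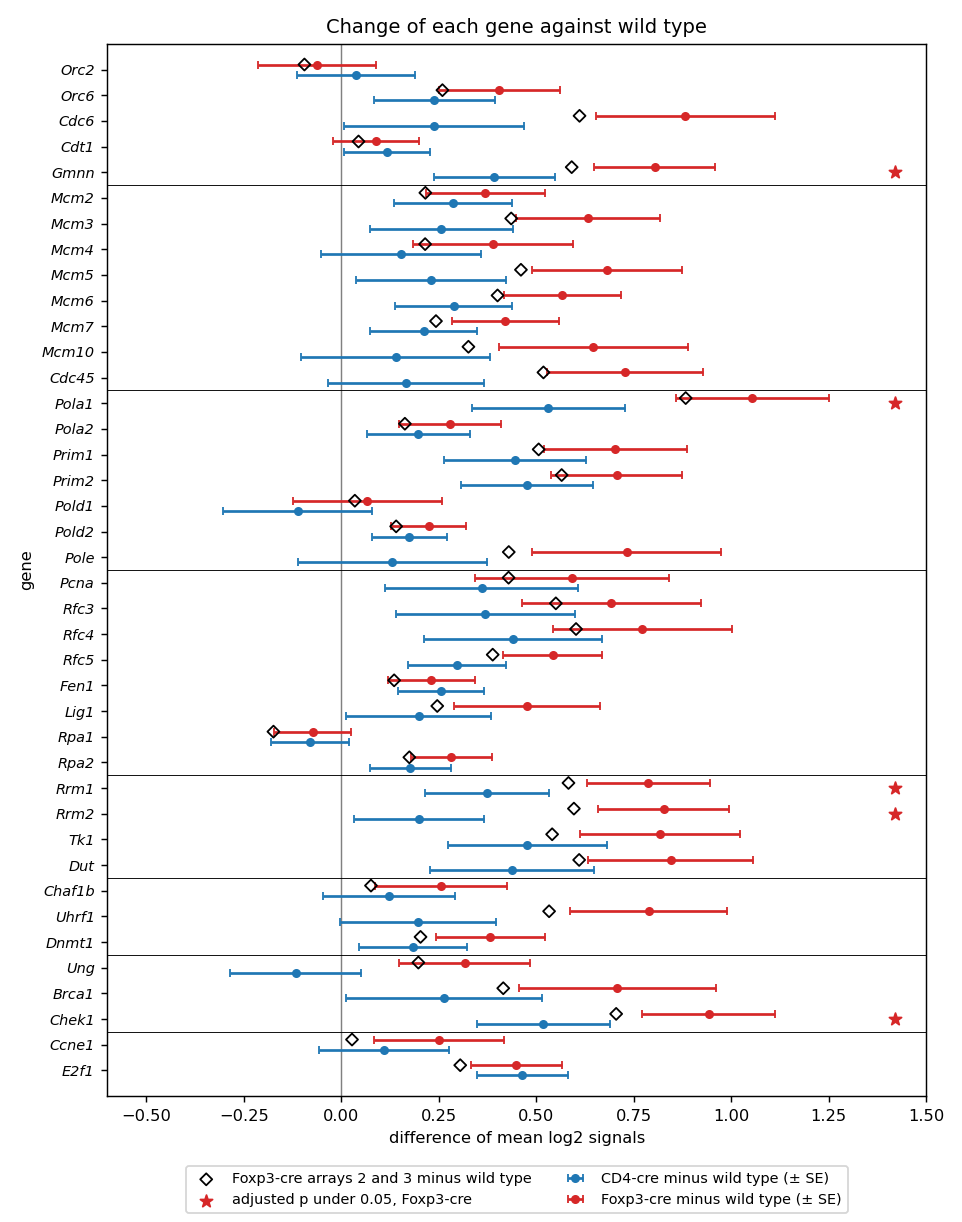
Difference of mean log2 signal against wild type for the 40 tested genes in role order, with bars of 1 SE, for Foxp3-cre (red) and CD4-cre (blue); open diamonds give Foxp3-cre arrays 2 and 3 alone against wild type and stars mark the 5 genes called in Foxp3-cre. Red points lie right of 0 for 38 genes and blue points for 37, and the diamonds lie left of nearly all red points.

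Since 38 of the 40 genes lay on one side, the DNA just before their start sites was read for short elements known from cell cycle promoters. RefSeq windows of 250 bases before the start (build GRCm38.p6) were given for 39 of the 44 genes. The E2F letters searched were TTTCCCGC, TTTCGCGC, TTTGCCGC and TTTGGCGC, and those of NF-Y were CCAAT, both on either strand. E2F letters stood in the window of 9 of 39 members, 23.1%, beside 4.35% of 6113 genes tested that have a window and 2.16% of all 27025 genes. CCAAT stood in 23 members, 59.0%, beside 40.5% and 37.5%. TTTGAA, the letters of an element of genes that peak after S phase, stood in 5 members on either strand, 12.8%, beside 12.5% and 18.3%. Of the called genes 4 have a window, and they are shown with Mcm6, whose window held the most E2F letters, with E2F and CCAAT letters in capitals and 0 bases shared between them.

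Pola1, chrX:93632156-93632405, minus strand: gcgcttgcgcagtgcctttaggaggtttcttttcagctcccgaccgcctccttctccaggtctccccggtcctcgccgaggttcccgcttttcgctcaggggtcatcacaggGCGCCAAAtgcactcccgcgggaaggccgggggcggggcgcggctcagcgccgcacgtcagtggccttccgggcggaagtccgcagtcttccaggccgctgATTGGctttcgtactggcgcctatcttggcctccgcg
Rrm1, chr7:102441445-102441694, plus strand: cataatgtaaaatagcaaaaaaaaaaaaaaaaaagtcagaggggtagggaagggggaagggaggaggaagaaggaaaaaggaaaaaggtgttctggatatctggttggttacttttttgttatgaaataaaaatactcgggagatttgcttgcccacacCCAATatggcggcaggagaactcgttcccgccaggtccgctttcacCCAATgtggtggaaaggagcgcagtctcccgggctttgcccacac
Rrm2, chr12:24708004-24708253, plus strand: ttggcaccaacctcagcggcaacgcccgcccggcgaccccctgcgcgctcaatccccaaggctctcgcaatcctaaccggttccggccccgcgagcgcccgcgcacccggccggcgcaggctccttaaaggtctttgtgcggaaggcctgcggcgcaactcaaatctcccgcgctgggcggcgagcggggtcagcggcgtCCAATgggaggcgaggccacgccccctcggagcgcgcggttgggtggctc
Chek1, chr9:36726659-36726908, minus strand: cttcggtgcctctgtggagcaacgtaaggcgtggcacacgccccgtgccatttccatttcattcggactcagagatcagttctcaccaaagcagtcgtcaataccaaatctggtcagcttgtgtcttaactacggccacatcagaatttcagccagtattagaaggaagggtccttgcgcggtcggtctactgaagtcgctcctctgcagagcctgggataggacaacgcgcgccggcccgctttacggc
Mcm6, chr1:128359706-128359955, minus strand: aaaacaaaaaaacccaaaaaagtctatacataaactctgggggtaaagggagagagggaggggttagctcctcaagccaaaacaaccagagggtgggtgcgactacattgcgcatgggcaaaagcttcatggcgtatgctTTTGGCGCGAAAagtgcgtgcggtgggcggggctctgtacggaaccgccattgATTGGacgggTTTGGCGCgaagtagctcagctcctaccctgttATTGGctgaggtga

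Of the 4 called genes Pola1 alone had E2F letters in its window, 138 to 131 bases before the start, with a CCAAT in reverse at 37 to 33. Rrm1 had CCAAT at 2 places and Rrm2 at 1, and Chek1 had neither. Mcm6 held E2F letters at 3 places, the first 2 of which overlap, and CCAAT in reverse at 2. The median change in Foxp3-cre was 0.69 over the 8 tested members with E2F letters and 0.46 over the 28 without, and the difference was not tested. A match of letters is a description and shows no binding, and these exact letters are a narrow form of what E2F factors bind.

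CD4-cre cells differed from wild type in the same direction but by less, and no gene passed. The median change was 0.23, beside 0.03 over all genes tested, and 37 of 40 members lay above 0, beside 56.3% of all genes. Of the 40 members 0 were called by limma, beside 0.659% of all genes called in either direction and 0.229% called higher. At an unadjusted limma p below 0.05 there were 10 members, all of them higher, beside 7.38% of all genes, and limma with array weights called 12, or 30%, beside 8.43% of all genes called higher with such weights. For 18 members all 3 CD4-cre arrays lay above all 3 wild type arrays, beside 11.9% of all genes. On the probe sets used the changes ran from -0.12 in Ung to 0.53 in Pola1, followed by Chek1 with 0.52 ± 0.17 SE, Tk1 and Prim2, both with 0.48, and E2f1 with 0.46. On their other sets above the limit Chek1 was at 0.79 and E2f1 at 0.03. CD4-cre arrays were close to each other, with a median SD of the members of 0.05 beside 0.22 in wild type and 0.31 in Foxp3-cre. The CD4-cre and Foxp3-cre comparisons share the wild type arrays, so that a low wild type array lifts both.

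The direct comparison of the knockouts does not use wild type in its difference. The median of Foxp3-cre minus CD4-cre was 0.27, beside -0.02 over all genes tested, and 36 of 40 members lay above 0, beside 45.3%. Of the 40 members 0 were called by limma, and only Foxp3 itself was called among all genes, 0.0134%. At an unadjusted limma p below 0.05 there were 11 members, all higher, beside 5.14% of all genes, and array weights called 3, or 7.5%, beside 4.69% of all genes called higher with them. All 3 Foxp3-cre arrays lay above all 3 CD4-cre arrays for 14 members, beside 10.9%. On the probe sets used the differences reached 0.64 in Cdc6, 0.63 in Rrm2, 0.60 in Pole and 0.59 in Uhrf1, and were near 0 in E2f1, Fen1, Cdt1 and Rpa1. On other sets above the limit E2f1 was at 0.22, Fen1 at 0.29 and Cdt1 and Rpa1 at 0.08. The difference between the knockouts was smaller without Foxp3-cre array 1, when the median was 0.09 and 29 members lay above 0.

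**Figure D4:**
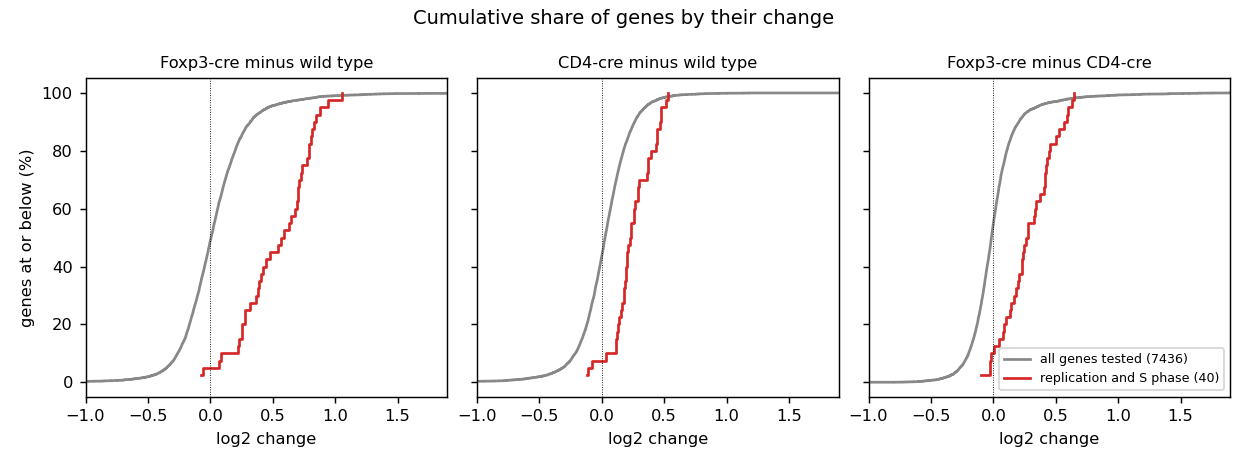
Cumulative share of genes, in percent, at or below each log2 change, for all 7436 genes tested (grey) and the 40 replication and S phase genes (red) in the 3 comparisons. The red curve lies to the right in all 3 panels, with medians of 0.58, 0.23 and 0.27 from left to right.

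Foxp3-cre array 1 was the high array of its group for every tested member. It lay above both other Foxp3-cre arrays for 40 of 40 members, beside 45.9% of all genes tested, by a median of 0.53, beside 0.03. The smallest such excess was 0.10 and the largest 0.96. The mean over the 40 members was 8.33 on that array, 7.77 and 7.83 on the other Foxp3-cre arrays, 7.65 to 7.75 on the CD4-cre arrays, and 7.59, 7.35 and 7.41 on wild type arrays 1 to 3. Without Foxp3-cre array 1 the median change against wild type was 0.39, 38 members still lay above 0, and 5 were called, Gmnn, Rrm1, Rrm2, Tk1 and Chek1, beside 1.8% of all genes called higher. Of the 40 changes 21 moved by over 1.5 times without that array, 19 of them to a smaller size. Tk1 was among the 21, but none of the 5 genes called with all arrays was. Pola1 then had a limma adjusted p of 0.0521, and in CD4-cre Chek1 and E2f1 were called, beside 0.269%. Wild type array 2 was the lowest of all 9 arrays for 20 members and the highest for 3. Without it the same 5 genes as with all arrays were called in Foxp3-cre, beside 2.69% of all genes, and the median was 0.47, with 10 changes moved by over 1.5 times. Leaving out both arrays, an alternative chosen after seeing the data, gave a median of 0.30 with 10 members called in Foxp3-cre, Cdc6, Gmnn, Pola1, Rfc5, Rrm1, Rrm2, Tk1, Uhrf1, Chek1 and E2f1, beside 4.41% of all genes called higher. It also gave 5 in CD4-cre, Gmnn, Fen1, Tk1, Chek1 and E2f1, beside 2.95%, and between the knockouts Rrm2 alone, beside 1.3%.

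The count of called members was sensitive to the other arrays too. It was 11 without wild type array 1 and 6 without Foxp3-cre array 2, where 3.05% and 1.34% of all genes were called higher. It was 0 without wild type array 3 (0.511% of all genes), without CD4-cre array 1 (0.538%) and without CD4-cre array 2 (0.646%). Without CD4-cre array 3 it was 2 (0.914%) and without Foxp3-cre array 3 it was 1 (0.417%). Chek1 was called in 6 of these 9 fits, and Gmnn, Pola1, Rrm1 and Rrm2 in 4 each. The CD4-cre arrays enter through the shared estimate of the spread, and with Foxp3-cre and wild type alone in the fit 0 members were called. The median change stayed between 0.39 and 0.70 in all 9 fits.

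Genes of replication outside the 44 were read from a second list of 42, of which 34 were tested. Their median change in Foxp3-cre was 0.26, 29 lay above 0, and 3 were called by limma, all higher, beside 1.69% of all genes called higher. Top2a, the topoisomerase that untangles copied DNA, changed by 1.20 at an adjusted p of 0.0258 by limma, Dna2, a nuclease of lagging strand fragments, by 0.87 at 0.0401, and Asf1b, a histone chaperone, by 0.79 at 0.0483. Of 15 tested G1/S regulators 11 lay above 0 and 3 were called, with limma adjusted p of 0.0191 to 0.0412: E2f8, an E2F repressor made in S phase, by 1.24, Ccna2, cyclin A2, by 1.11, and Cks1b, a subunit of cyclin-dependent kinases, by 0.79. The D cyclins, which act earlier in G1, were at -0.43 for Ccnd1, -0.10 for Ccnd2 and 0.03 for Ccnd3, none called. Of 15 tested genes that restrain the cycle 8 lay above 0, none was called, and 4 were at an unadjusted limma p below 0.05. The 2 furthest from 0 were the inhibitor Cdkn2c with 0.65 and the retinoblastoma gene Rb1 with 0.49. In CD4-cre 0 genes of these 3 lists were called by limma, with 10 at an unadjusted p below 0.05, 6 of 34, 2 of 15 and 2 of 15 tested, near the 14.1% of all genes. With the block 7, 5 and 1 genes of the 3 lists were called in Foxp3-cre, all higher, beside 2.89% of all genes. Cdkn2c was among them with a limma adjusted p of 0.0278.

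The mitosis genes, the nearest neighbours of S phase in the cycle, were higher by more. Of 25 tested, 25 lay above 0 in Foxp3-cre with a median of 0.94. By limma 11 were called higher, beside the 1.69% of all genes, and 21 with the block, beside 2.89%. Their medians were 0.33 in CD4-cre against wild type and 0.61 between the knockouts, with 0 called in either. At an unadjusted limma p below 0.05 there were 6 and 18, all higher, beside 7.38% and 5.14% of all genes. Whether mitosis and replication genes differ in size was not tested. The mean of the mitosis genes was highest on Foxp3-cre array 1, at 7.72, beside 6.87 and 7.09 on the other Foxp3-cre arrays and 6.0 to 6.69 elsewhere.

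Markers of other cells moved in the same comparison. All 4 markers of granulocyte precursors, a dividing cell type of the bone marrow, rose in Foxp3-cre by limma: Mpo by 1.81, Prtn3 by 1.33, Elane by 1.14 and Ctsg by 1.05. Their mean was 6.42, 5.83 and 6.25 on Foxp3-cre arrays 1 to 3. Array 1 was the highest and array 2 the lowest of that group, as in the mean of the replication genes, at 8.33, 7.77 and 7.83. Within the other groups the orders differed. Wild type arrays 1 to 3 had means of 4.51, 5.0 and 4.99 for the precursor markers but 7.59, 7.35 and 7.41 for the replication genes. On CD4-cre arrays 1 to 3 these were 5.66, 5.47 and 5.63 but 7.68, 7.75 and 7.65. Of 9 tested neutrophil markers among 10 listed 4 rose, Camp, Ngp, Ltf and Lcn2, and the mean of the 9 was 8.48 to 9.49 in wild type, 8.63 to 9.68 with CD4-cre and 9.54, 10.16 and 10.79 with Foxp3-cre, where array 1 was the lowest. The mean of 5 tested macrophage markers among 9 listed, of which C1qb rose, ran from 6.16 to 6.65 in wild type, from 6.07 to 7.38 in CD4-cre and over 6.97, 7.86 and 8.57 in Foxp3-cre. The 5 tested B cell markers among 8 listed, none called, had a mean of 6.99 to 7.69 in wild type, 7.74 to 7.78 with CD4-cre and 7.10, 8.53 and 8.71 with Foxp3-cre. Foxp3-cre array 1, the highest for the replication genes, was thus the lowest of its group for neutrophil, macrophage and B cell markers and the highest for granulocyte precursor markers. Of the 6 NK markers Prf1 and Nkg7 fell, by 0.86 and 0.58. Of the tested plasma cell, erythroid, thymocyte and T cell markers, 5, 2, 3 and 8 genes, none was called. With the block 6 neutrophil, 3 macrophage and 1 plasma cell marker were called higher, beside 2.89% of all genes. The added ones were S100a8, S100a9, C1qa, Lyz2 and Irf4. The part of other cells in the values of the replication genes was not tested.

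**Figure D5:**
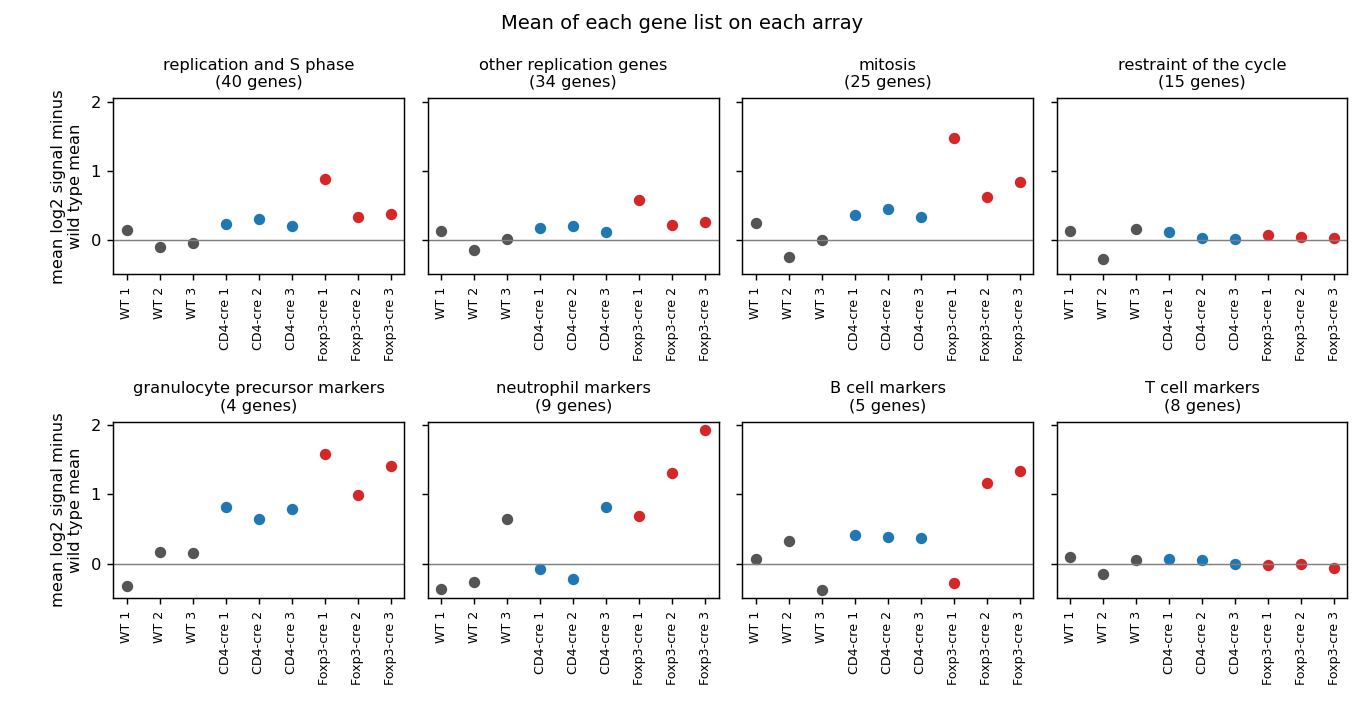
Mean log2 signal of 8 gene lists on each of the 9 arrays, minus the mean of the 3 wild type arrays, with wild type in grey, CD4-cre in blue and Foxp3-cre in red. Replication, other replication and mitosis genes are highest on Foxp3-cre array 1, whereas neutrophil and B cell markers are lowest on that array within Foxp3-cre.

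A second reading of the genes came from probe sets that were not used above. Of the 43 genes, 26 had more than 1 probe set, and for 20 of these more than 1 was above the limit. In 18 of the 20 every such set lay above 0 in Foxp3-cre against wild type. Of the 27 further sets 26 lay above 0, with a median of 0.50, and 26 were highest on Foxp3-cre array 1. These sets measure the same RNA samples and are no further replicates. On wild type array 2, however, 13 of the 20 genes had one set above the mean of the other wild type arrays and another below it.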

How the data were processed

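The values deposited by the authors are log2 signals of probe sets, made with RMA per the submitters' processing notes, which corrects background, normalizes between arrays and so removes any change common to all genes. The RMA version is not stated in those notes. Probe sets with exactly 1 gene symbol in the platform annotation were kept, and each gene was read from its set with the highest mean over 9 arrays, 82 sets covering 43 members, whose symbols all matched a RefSeq gene table. Genes whose mean reached the 40th percentile of gene means were tested in 1 fit of 9 arrays with limma 3.58.1 in R 4.3.3 (lmFit, eBayes), with 6 residual and 3.37 prior degrees of freedom, two-sided, and Benjamini-Hochberg adjustment over all genes. The fit was tested on simulated data. Depth is set by the number of arrays, 3 a group; the median SE of a change was 0.11 over all genes and 0.17 over members. Samples were grouped by their labels. The labels do not say what a replicate number marks, and pairing was checked on the data: deviations from group means correlated at 0.201 to 0.255 for the 3 same-numbered pairs of wild type and Foxp3-cre, all over 0.1, and for 2 of 3 pairs in each comparison with CD4-cre, so the block is given beside results only for Foxp3-cre against wild type. Members and lists were chosen with earlier results of these data known. Members given array by array are those called, the 2 with the largest change in Foxp3-cre in each role, and Mcm2, Mcm5, Pcna, Rrm2, Tyms, E2f1, Ccne1, Ccne2 and Dnmt1. Pathway genes are named if called, or else the 2 with the largest change; the D cyclins were chosen after their values were seen. Mcm6 is shown for its sequence. Alternatives were the probe set, filter, normalization, fit, replicate block and arrays left out.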

Additional observations from a re-analysis of the deposited data

How the results depend on the processing

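The median change of the members stayed above 0 in every alternative run for the 3 comparisons. Of the 40 members 5 changed sign in at least 1 alternative in Foxp3-cre against wild type, 6 in CD4-cre against wild type and 10 between the knockouts, none of them called there, the largest being 0.39 for Mcm4, 0.20 and 0.14 in size with all arrays. Of the values of single members given array by array, 318 kept direction and side of the threshold, 21 gained a call and 31 lost one. The count of 5 called members in Foxp3-cre against wild type depended on the setting. It was 3 with the probe set of largest SD, Gmnn, Pola1 and Rrm2, beside 1.44% of all genes called higher, and Rrm1 then had a limma adjusted p of 0.115. It was 8 with quantile normalization again (2.08%) and 23 with array weights (57.5% of members, beside 8.74% of all genes called higher). With only the compared groups in the fit it was 0 (0.0269%). Without wild type array 2 and Foxp3-cre array 1 it was 10 (4.41%), and the median was 0.30. Leaving out 1 array at a time gave 0 to 11 called. In CD4-cre against wild type the median was 0.34 with the probe set of largest SD and 0.19 to 0.33 with 1 array left out, and 12 members were called with array weights, 5 without both arrays and 0 to 2 with 1 left out. Between the knockouts array weights called 3 and leaving out both arrays 1. Array weights raised the count over all genes from 250 to 1539 against wild type in Foxp3-cre, from 49 to 1298 in CD4-cre and from 1 to 812 between the knockouts. The cause of these changes was not tested, except that the fit of 2 groups has fewer arrays. With the replicate number as a block 14 members were called in Foxp3-cre against wild type; the block lost no call of a member or list gene, and in the other 2 comparisons it called 0 members, while the count over all genes between the knockouts went from 1 to 96. Over all 9 same-numbered pairs the correlation of deviations ran from -0.03 to 0.49, and 4 of 9 arrays correlated best with their own number in both other groups. CD4-cre array 2 and Foxp3-cre array 1, of unlike number, correlated at 0.322. An exact permutation of 3 arrays against 3 cannot go below 0.1 and was not used.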

Other observations

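The suffix of a probe set marked how it read on wild type array 2. Over all probe sets above the limit for testing, sets ending in _x_at, which may hybridize to related transcripts, lay a median of 0.16 above the mean of wild type arrays 1 and 3, and sets ending in _at lay 0.09 below it. Among the members' sets the medians were 0.24 for 8 _x_at sets, 6 of them higher, and -0.30 for 39 _at sets, 9 of them higher. The 3 members whose tested set was highest of all 9 on that array were Pold1, Cdt1 and Orc2.

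Identical values were found within groups and also across them. Orc6 read the same 6.83 on CD4-cre arrays 2 and 3 and Foxp3-cre array 3. Brca1 read the same 6.10 on all 3 CD4-cre arrays and Foxp3-cre array 2. In CD4-cre 6 members had the same signal on at least 2 of the 3 arrays, beside 6.83% of all genes tested, and 1 of these on all 3. In Foxp3-cre there was 1 such member, beside 5.46%, and in wild type 0, beside 2.56%.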
